A study of Homo sapiens with 6 samples.

Results

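The NRF2 antioxidant target genes examined here were NQO1, HMOX1, GCLC, GCLM, TXNRD1, SRXN1, AKR1B10, AKR1C1 and AKR1C2, taken as the rows of the expression table that carry these symbols. All 9 were found among 26255 rows, and 8 of them passed the filter of 0.1 FPKM or more in 3 or more of the 6 libraries, as did 16020 genes in all. The cells were H1299, an established human lung cancer line, grown in RPMI-1640 with fetal bovine serum and given no further treatment. The shControl group (3 libraries) carried a pSilencer2.1-U6 control shRNA and the shEphexin1 group (3 libraries) the same vector with an shRNA against Ephexin1, a guanine nucleotide exchange factor encoded by NGEF. The labels give the neo form of this vector and the study's methods its hygro form, which also describe drug selection and stable knockdown clones. The shEphexin1 labels share 1 stem, so these libraries may come from 1 clone, and the p values then measure the spread between repeat libraries and not between knockdown lines.

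NRF2, encoded by NFE2L2, is a transcription factor that KEAP1 binds in the cytoplasm and presents to a CUL3 ubiquitin ligase for degradation. When electrophiles or oxidants modify KEAP1, NRF2 accumulates, pairs with a small MAF protein and binds antioxidant response elements near genes for glutathione synthesis, thioredoxin recycling, quinone and carbonyl reduction and heme breakdown. In lung cancer, mutations of KEAP1 or NFE2L2 that keep this programme on are well known, and high NQO1 and aldo-keto reductase mRNA are commonly read as its signature.

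The antioxidant response element is shown first because NRF2 binds it near its target genes. Its core letters, TGACNNNGC, were searched on both strands in the 1000 bases before the start site of the canonical GENCODE transcript (GRCh37). They were found once each before NQO1, GCLC, GCLM, TXNRD1 and AKR1B10, that is for 5 of the 9 genes, and for 4531 of 13655 protein-coding genes searched in the same way (33.2%). These are matches of letters only, and whether NRF2 binds them was not tested. Each is printed with 10 bases on either side, on the strand that carries the motif, with the motif in capitals.
NQO1: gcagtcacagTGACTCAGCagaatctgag
GCLC: aaatatgtgtTGACAGAGCaatgacctgt
GCLM: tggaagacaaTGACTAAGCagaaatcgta
TXNRD1: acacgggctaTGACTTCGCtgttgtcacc
AKR1B10: acagatgctgTGACGTGGCcctggcctgt

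The NQO1 motif lies at chr16:69760910-69760918 on the minus strand, 447 to 455 bases before the start site and within an exon of the divergent transcript NQO1-DT. It also holds TGANTCA, the letters of an AP-1 site, and the 2 motifs overlap there. Such a combined match was found before 1.23% of the genes searched. The TXNRD1 motif (chr12:104609458-104609466, plus strand) and the AKR1B10 motif (chr7:134211461-134211469, plus strand) lie in no annotated gene. The GCLM motif (chr1:94375012-94375020, plus strand) starts 26 bases before the start site and touches an exon of a GCLM transcript that starts further upstream. The GCLC motif (chr6:53410761-53410769, plus strand) lies in an intron of GCLC transcripts that start further upstream. For HMOX1, SRXN1, AKR1C1 and AKR1C2 these letters are not in this window.

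NGEF itself was at 13.3, 11.7 and 16.4 FPKM across shControl against 9.81, 8.25 and 10.5 FPKM across shEphexin1, with no overlap between the groups (log2 fold change -0.53, limma adjusted p = 0.103, standard error 0.163). With replicates 1 and 3 alone the limma adjusted p of NGEF was 0.0338, and with a term for replicate 2 it was 0.00572. FPKM are fragments per kilobase of transcript, scaled by a factor for each library (geometric normalization per the study's methods), so levels of different genes can be set side by side. The number of reads behind them is not known here. In the labelled lung cancer cells, 6 of 14 marker genes were under the filter, among them the lung epithelial factor NKX2-1, the adhesion gene CDH1 and the leukocyte gene PTPRC, each listed at 0 in all 6 libraries. VIM was at 2165 FPKM and the cytokeratin KRT18 at 88.9 FPKM in shControl (means, n = 3), and KRT8 and KRT18 were lower in shEphexin1 (log2 fold changes of -1.07 and -0.94, limma adjusted p = 0.0304 and 0.0439). The 6 other markers tested did not pass, 5 of them with higher and 1 with lower values in shEphexin1. Among them was the epithelial gene EPCAM at 0.0409 and 0.173 FPKM (group means, log2 fold change 0.97, limma adjusted p = 0.175). Only its shEphexin1 values reached the 0.1 FPKM of the filter, so EPCAM was tested only through the group where it was higher. CD68, chosen like PTPRC as a blood cell marker, was also among the markers that did not pass and, unlike PTPRC, was expressed. Its values were 45.1, 37.8 and 53.5 FPKM across shControl against 57.1, 53.4 and 71.1 FPKM across shEphexin1. The groups overlapped for CD68 (log2 fold change 0.42, limma adjusted p = 0.188). The part of these markers in the results was not tested. The deviation of a library from its group mean fell with GC content in replicate 2 of both groups (Spearman's rho across 15200 genes of -0.689 and -0.751) and rose with it in the other libraries (0.338 to 0.654). Values for replicate 2 or for replicates 1 and 3 are therefore also given apart for some genes.

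In shControl cells the levels of the 9 genes spanned a wide range. NQO1, a quinone reductase, stood highest at 139 ± 0.957 FPKM (SD, n = 3), followed by TXNRD1, the cytosolic thioredoxin reductase, at 70.6 ± 2.50 FPKM and SRXN1, which reduces overoxidised peroxiredoxins, at 30.6 ± 3.53 FPKM. HMOX1 at 9.56 ± 2.02, GCLC at 8.85 ± 0.0458 and GCLM at 7.71 ± 1.49 FPKM did not differ from one another beyond their spread. The aldo-keto reductases were lowest, with AKR1C2 at 1.52 ± 0.209, AKR1C1 at 0.278 ± 0.0964 and AKR1B10 at 0.0661 ± 0.0711 FPKM. In shEphexin1 cells the order was the same except that GCLM stood above GCLC, and the values of these neighbours overlapped.

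**Figure D1:**
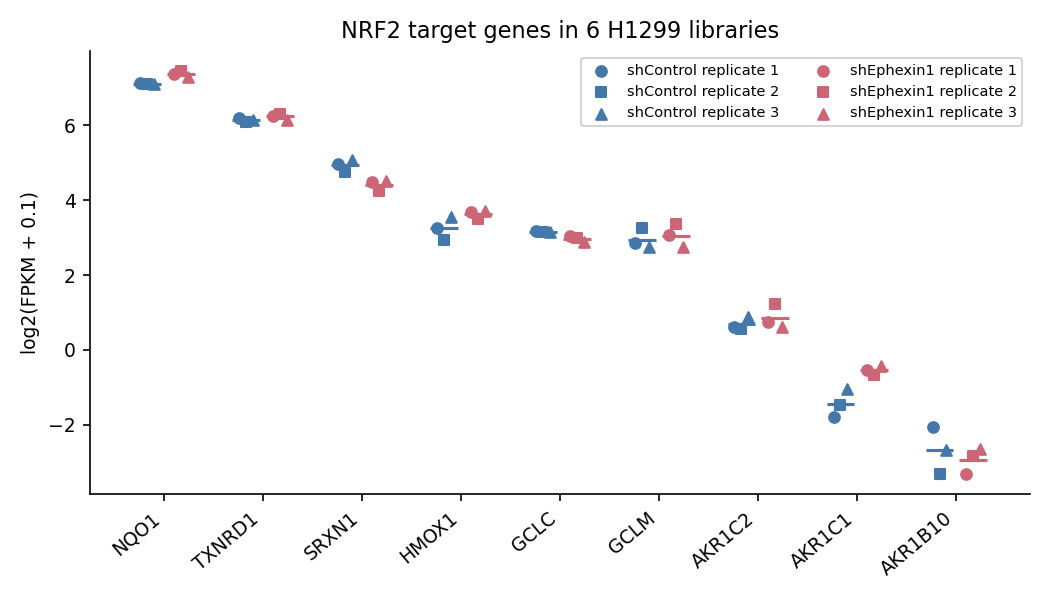
Level of each NRF2 target gene as log2(FPKM + 0.1) in the 6 libraries, with shControl in blue, shEphexin1 in red, 1 marker shape per replicate and a bar at the group mean. NQO1, GCLC, SRXN1 and AKR1C1 are the genes whose groups do not overlap, with SRXN1 and GCLC lower and NQO1 and AKR1C1 higher in shEphexin1.

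The NRF2 target genes did not differ between the groups in a common direction, and none passed the test in the fit without replicate terms. Of the 8 genes tested, 6 were higher and 2 were lower in shEphexin1, and the median of their log2 fold changes was 0.14 (from -0.51 to 0.89), where the median over all 16020 genes was -0.0093. None was called differentially expressed by limma at an adjusted p no higher than 0.025 with a fold difference of 2 or more, thresholds that 1.89% of all genes tested passed. None had an adjusted p no higher than 0.05 either, which 7.01% of all genes had. At an unadjusted p no higher than 0.05 there were 3 of the 8 genes (NQO1, SRXN1 and AKR1C1), and 23.3% of all genes. The groups did not overlap for 4 of the 8. Of these, 2 were higher in shEphexin1 without overlap, which held for 12.8% of all genes, and 2 were lower without overlap, which held for 15.4% of all genes. With a term for each replicate number in the fit, 4 of the 8 genes (NQO1, HMOX1, SRXN1 and AKR1C1) had an adjusted p no higher than 0.05. The same 4 did after correction for GC content and transcript length. The share of all genes at that p was not counted in these 2 fits, so the 4 of 8 cannot be set against the 7.01%. More genes of any kind were called in them by the stricter rule, 556 and 543 against 303. In RNA from a whole culture, fewer cells expressing a gene and less of its RNA per cell cannot be told apart.

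**Figure D2:**
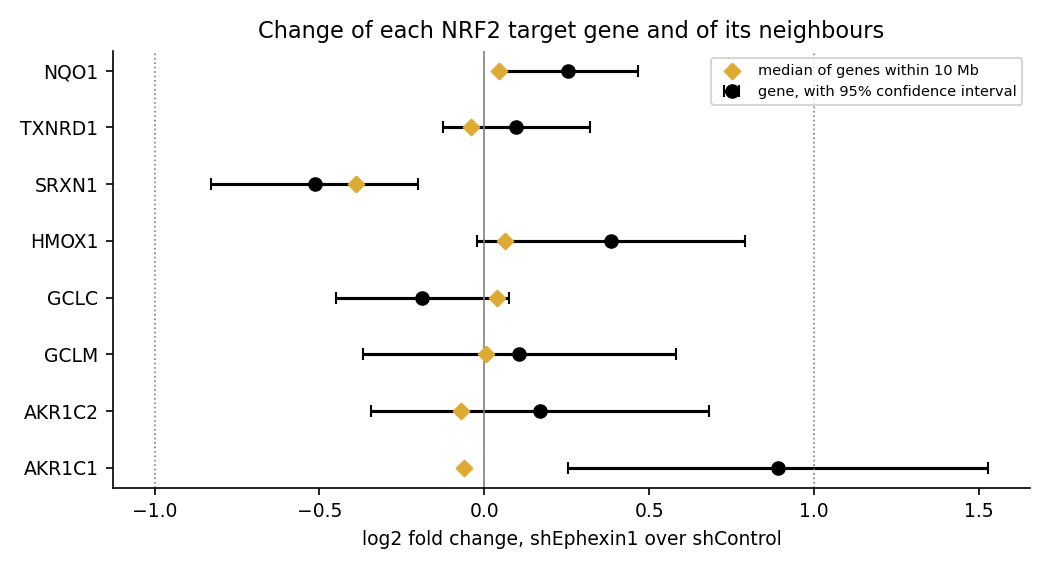
Log2 fold change of shEphexin1 over shControl for the 8 genes tested (black points, with the 95% confidence interval of the limma fit) and the median log2 fold change of the expressed genes within 10 Mb of each (yellow diamonds), with dotted lines at a 2-fold difference. The neighbours' median lies near 0 for 7 of the 8 genes and at -0.39 for SRXN1, whose own value is -0.51.

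Among the enzymes of quinone and heme metabolism, NQO1 was at 140, 139 and 139 FPKM across shControl against 166, 176 and 157 FPKM across shEphexin1. Every shEphexin1 library lay above every shControl library, and the mean was 119% of the control. The fitted log2 fold change of NQO1 was 0.25 (standard error 0.0906, 95% confidence interval 0.042 to 0.47, limma adjusted p = 0.147; two-sided exact permutation p = 0.1, the lowest value possible with 3 libraries in each group). HMOX1, the inducible heme oxygenase and also a target of BACH1 repression, was at 9.52, 7.55 and 11.6 FPKM across shControl against 12.7, 11.2 and 13.1 FPKM across shEphexin1. The groups overlapped by 1 library, shControl replicate 3. Its log2 fold change was 0.38 (standard error 0.174, 95% confidence interval -0.023 to 0.79, limma adjusted p = 0.240), and 0.23 without shControl replicate 2. In both groups the replicate 2 library was the lowest for HMOX1, and within replicate 2 alone the difference was 0.56 on the log2 scale. With replicates 1 and 3 alone the log2 fold changes were 0.21 for NQO1 (limma adjusted p = 0.0916) and 0.29 for HMOX1 (limma adjusted p = 0.148). A term for replicate 2 in the fit brought both under 0.05 (limma adjusted p = 0.0122 and 0.0273).

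GCLC and GCLM encode the catalytic and the modifier subunit of glutamate-cysteine ligase, the first and rate-limiting enzyme of glutathione synthesis. GCLC was at 8.90, 8.81 and 8.85 FPKM across shControl against 8.08, 7.90 and 7.32 FPKM across shEphexin1. All shEphexin1 values were below all shControl values, at 87.7% of the control mean, but the log2 fold change of -0.19 (standard error 0.112, 95% confidence interval -0.45 to 0.074) did not pass (limma adjusted p = 0.373). GCLM was at 7.12, 9.40 and 6.61 FPKM across shControl against 8.24, 10.2 and 6.61 FPKM across shEphexin1. Replicate 2 was the highest library of both groups, and the spread between replicates was larger than the difference between groups (log2 fold change 0.11, standard error 0.203, 95% confidence interval -0.37 to 0.58, limma adjusted p = 0.809). Without shEphexin1 replicate 2 the sign of the GCLM difference turned (-0.045).

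In the thioredoxin branch, TXNRD1 was at 73.1, 68.1 and 70.8 FPKM across shControl against 76.8, 79.3 and 70.7 FPKM across shEphexin1. The groups overlapped, and the log2 fold change of 0.097 had a 95% confidence interval of -0.13 to 0.32 (limma adjusted p = 0.600). For TXNRD1, replicate 2 alone gave 0.22, replicates 1 and 3 alone gave 0.036, and leaving out shEphexin1 replicate 2 gave 0.063. SRXN1 was at 31.1, 26.8 and 33.8 FPKM across shControl against 22.3, 18.8 and 23.0 FPKM across shEphexin1, 69.8% of the control mean. The groups were well apart, and the log2 fold change of -0.51 (standard error 0.134, 95% confidence interval -0.83 to -0.20) came closest of the 8 genes to the threshold (limma adjusted p = 0.0654; exact permutation p = 0.1). Its size hardly depended on the replicate, with differences of -0.48, -0.51 and -0.56 in replicates 1, 2 and 3. With replicates 1 and 3 alone the adjusted p was 0.0127, with a term for replicate 2 it was 0.00113, and without shControl replicate 1 it was 0.236 (all limma).

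SRXN1 lies near the end of the short arm of chromosome 20 (GRCh37, 627259 to 633844, minus strand), and the genes around it were lower together. Of 57 other expressed genes (mean of at least 1 FPKM) within 10 Mb, 51 were lower and 6 were higher in shEphexin1, with a median log2 fold change of -0.39, where 45.3% of all 12638 expressed genes were higher. Within 2 Mb, 1 of 18 genes was higher, with a median of -0.50. Among the 57 neighbours, 9 had an adjusted p no higher than 0.05, all of them lower (7.01% of all genes in either direction), and 2 were called (1.89% of all genes), TRIB3 and SIRPA, which are named here after their values were seen. The log2 fold change of SRXN1 minus that of its neighbours was -0.13. When the median of the neighbours was taken in each library, SRXN1 lay at 0.0074, -0.052 and 0.062 relative to them in shControl and at -0.16, -0.21 and -0.12 in shEphexin1. The groups still did not overlap, with a mean difference of -0.17 (exact permutation p = 0.1). These differences are for the 10 Mb window only. The median within 2 Mb, -0.50, lay nearer to the -0.51 of SRXN1 itself and was not subtracted by library.

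**Figure D3:**
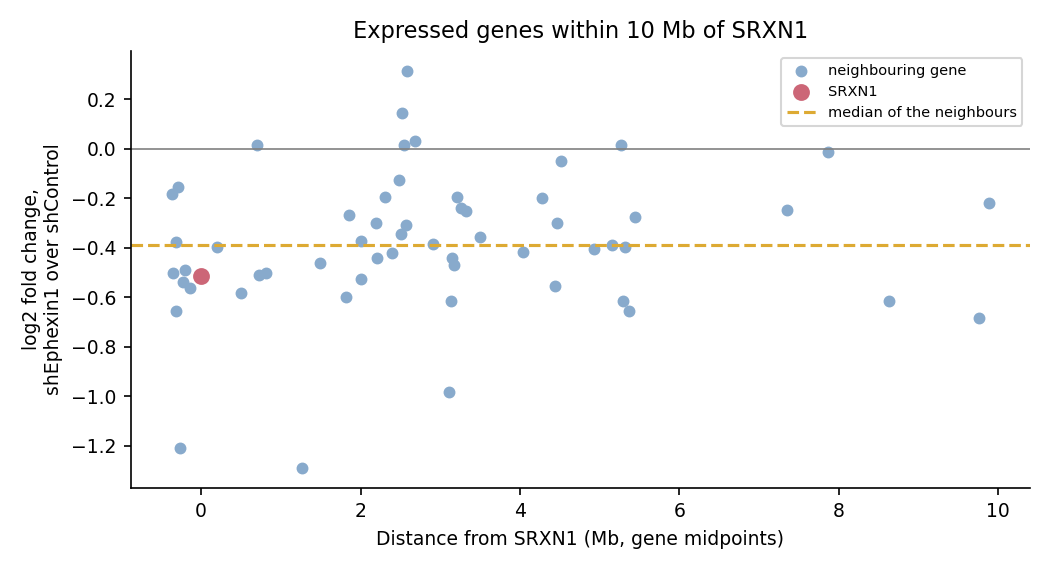
Log2 fold change of shEphexin1 over shControl for the 57 expressed genes within 10 Mb of SRXN1, against the distance of their midpoints from that of SRXN1 in Mb, with SRXN1 in red. The neighbours' median (dashed line) is -0.39, 51 of the 57 genes lie below 0, and SRXN1 at -0.51 sits among them.

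The aldo-keto reductases reduce carbonyls, steroids and prostaglandins. AKR1C1 and AKR1C2 lie next to each other on chromosome 10 (GRCh37, 5005445 to 5025475 on the plus strand and 5029967 to 5060223 on the minus strand), and their coding sequences of 969 bases differ at 19 positions (98.0% identical). Of all stretches of 50 bases in the AKR1C1 coding sequence, 51.6% also occur unchanged in AKR1C2, and of those of 100 bases 18.9%. How reads that fit both genes were divided is not given in the sources used here, so their separate values are uncertain. The stretch of 60 bases within 1 exon that holds the most differences, 10 of the 19, is in exon 2 (bases 103 to 162 of the coding sequence; chr10:5008124-5008183 for AKR1C1 and chr10:5043796-5043855 for AKR1C2). It is shown, with the differing bases in capitals, because reads from it can be told apart.
AKR1C1: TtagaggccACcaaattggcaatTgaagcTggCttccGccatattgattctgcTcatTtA
AKR1C2: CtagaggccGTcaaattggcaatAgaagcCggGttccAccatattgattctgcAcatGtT

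AKR1C1 was at 0.190, 0.263 and 0.381 FPKM across shControl against 0.591, 0.534 and 0.637 FPKM across shEphexin1. The groups did not overlap, and the mean in shEphexin1 was 211% of the control. The log2 fold change of 0.89 (standard error 0.272, 95% confidence interval 0.26 to 1.53, limma adjusted p = 0.10; exact permutation p = 0.1) was the largest of the 8 genes, at a level under 1 FPKM. It depended on the pseudocount, being 0.32 with 1 FPKM added and 1.10 with 0.01 FPKM added. The AKR1C1 differences in replicates 1, 2 and 3 were 1.25, 0.80 and 0.62 on the log2 scale. AKR1C2 was at 1.43, 1.36 and 1.75 FPKM across shControl against 1.57, 2.23 and 1.42 FPKM across shEphexin1, and the groups overlapped (log2 fold change 0.17, standard error 0.219, 95% confidence interval -0.34 to 0.68, limma adjusted p = 0.703). Its sign turned with replicates 1 and 3 alone (-0.082), while replicate 2 alone gave 0.67. The sum of both genes was 1.79 ± 0.295 FPKM for shControl and 2.33 ± 0.380 FPKM for shEphexin1 (SD over 3 libraries each, exact permutation p = 0.2). The groups overlapped for this sum, which still depends on how shared reads were divided, since FPKM divide by the length of each gene.

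AKR1B10, the third aldo-keto reductase, was under the filter, at 0.141, 0 and 0.0569 FPKM across shControl against 0, 0.0399 and 0.0593 FPKM across shEphexin1. Each group held 1 library listed at 0, and no fold change is given. The expressed genes within 10 Mb of it on chromosome 7 were higher together (66 of 74, median log2 fold change 0.41). Its paralog AKR1B1, aldose reductase, lies in the same stretch and was at 27.8, 21.6 and 28.3 FPKM across shControl against 34.7, 28.7 and 38.5 FPKM across shEphexin1, without overlap. AKR1B1 had a log2 fold change of 0.39 (limma adjusted p = 0.196, standard error 0.159), against a median of 0.43 for its neighbours.

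None of the other aldo-keto reductases had an adjusted p no higher than 0.05. AKR1C3, 91.4% identical to AKR1C1 in coding sequence, was between 0 and 0.291 FPKM in the 6 libraries. AKR1C4 was listed at 0 in all of them, and AKR1B15 and AKR1D1 were above 0 in 1 library each. AKR7A2 and AKR1A1 were lower by log2 fold changes of -0.35 and -0.25 (limma adjusted p = 0.146 and 0.367), and AKR7A3 averaged 0.599 ± 0.0576 FPKM in the control and 0.775 ± 0.285 FPKM after knockdown (SD over 3 libraries).

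AKR1C1 itself did not reach a mean of 1 FPKM. Among the 12638 expressed genes that did, the 5 whose profile over the 6 libraries was most like that of AKR1C1 were CPEB1, PCDHGA2, GABRE, LRP5L and IL22RA1. Likeness was the root mean square difference between the log2(FPKM + 0.1) values, each centred on the gene's own mean, and it ran from 0.115 for CPEB1 to 0.140 for IL22RA1. GABRE, a GABA receptor subunit, was at 1.86, 2.19 and 2.70 FPKM across shControl against 5.05, 4.71 and 4.89 FPKM across shEphexin1.

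The mRNAs of NRF2 itself, KEAP1 and BACH1 did not pass the test. NFE2L2 was at 36.9, 43.1 and 33.0 FPKM across shControl against 42.5, 47.5 and 36.7 FPKM across shEphexin1, with replicate 2 highest in both groups (log2 fold change 0.17, 95% confidence interval -0.17 to 0.50, limma adjusted p = 0.558). KEAP1 was at 38.7, 26.4 and 39.7 FPKM across shControl against 40.4, 28.6 and 39.2 FPKM across shEphexin1, with replicate 2 lowest in both (log2 fold change 0.054, limma adjusted p = 0.910). BACH1, a repressor that competes for the same elements, had a log2 fold change of 0.15 (limma adjusted p = 0.584).

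All 14 regulators passed the filter, 6 higher and 8 lower, with a median log2 fold change of -0.063. None was called, and 1 of the 14 had an adjusted p no higher than 0.05, near the 7.01% of all genes. This was BACH2, the lymphoid relative of BACH1. BACH2 was low, at 0.252, 0.414 and 0.324 FPKM across shControl against 0.0537, 0.0264 and 0.0518 FPKM across shEphexin1 (log2 fold change -1.57, limma adjusted p = 0.0304, standard error 0.307). Only its shControl values reached the 0.1 FPKM of the filter, so BACH2 was tested only through the group where it was higher. The adjusted p of BACH2 was over 0.05 when any 1 of the 6 libraries was left out and with replicates 1 and 3 alone, and BACH2 was called under 5 of 16 alternatives, among them a term for replicate 2. Its log2 fold change was -0.35 with a pseudocount of 1 FPKM and -2.67 with 0.01 FPKM. SYVN1, a ubiquitin ligase of the endoplasmic reticulum, had a log2 fold change of 0.73 (limma adjusted p = 0.0864). The small MAF gene MAFF and NFE2L1, which encodes a related factor, had log2 fold changes of 0.53 and -0.47 (limma adjusted p = 0.173 and 0.144).

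Beyond the 9 genes, 40 further NRF2 targets were examined, and 36 passed the filter. Of these, 14 were higher and 22 lower, with a median log2 fold change of -0.17, where that of all genes tested was -0.0093. At an adjusted p no higher than 0.05, 3 of the 36 genes fell and none rose, where 7.01% of all genes passed in either direction, and 1 of them, ABCC3, was called, where 1.89% of all genes were. In the lower direction alone, 692 of all 16020 genes passed that adjusted p. The groups did not overlap for 10 of the 36 with lower and 3 with higher values in shEphexin1. Among all genes these shares were 15.4% and 12.8%. At an unadjusted p no higher than 0.05 (limma), 9 of the 36 were lower and 3 higher, against 2056 and 1681 of all genes. Whether the list differs from all genes was not tested. ABCC3, a transporter that exports conjugated organic anions, was at 2.97, 2.79 and 3.85 FPKM across shControl against 0.208, 0.154 and 0.208 FPKM across shEphexin1. ABCC3 had a log2 fold change of -3.50 (limma adjusted p = 0.000345, standard error 0.216), and it was called under all 17 alternatives. The size depended on the pseudocount, being -1.81 with 1 FPKM added and -4.00 with 0.01 FPKM added.

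The other 2 genes that fell were MGST1, a membrane-bound glutathione transferase, and FECH, which inserts iron into protoporphyrin to form heme. MGST1 went from 43.9 ± 5.62 to 26.7 ± 3.85 FPKM (log2 fold change -0.72, limma adjusted p = 0.0365, standard error 0.152) and FECH from 6.74 ± 0.403 to 4.23 ± 0.479 FPKM (log2 fold change -0.66, limma adjusted p = 0.0356, standard error 0.140; SD, n = 3 in each group). Both losses were under 2-fold. The adjusted p exceeded 0.05 for both when any library except shEphexin1 replicate 2 was left out. EPHX1, a microsomal epoxide hydrolase, was higher without overlap (log2 fold change 0.70, limma adjusted p = 0.0886).

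Of 23 general antioxidant genes, such as superoxide dismutases, peroxidases and glutaredoxins, 21 passed the filter, 8 higher and 13 lower (median log2 fold change -0.035). None was called, and 2 of the 21 fell at an adjusted p no higher than 0.05, a threshold that 7.01% of all genes passed in either direction. PRDX3, the mitochondrial peroxiredoxin, was at 94.8, 89.3 and 87.1 FPKM across shControl against 58.7, 69.4 and 51.2 FPKM across shEphexin1 (log2 fold change -0.61, limma adjusted p = 0.0365, standard error 0.129). GLRX3, a glutaredoxin of iron-sulfur cluster assembly, was at 54.7, 57.4 and 54.3 FPKM across shControl against 37.2, 43.6 and 37.0 FPKM across shEphexin1 (log2 fold change -0.50, limma adjusted p = 0.0364, standard error 0.106). Both were over 0.05 under 9 of 17 alternatives, among them median centring. SESN2, a stress-induced sestrin, had a log2 fold change of -0.46 (limma adjusted p = 0.307).

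As with SRXN1, most of these genes lie among genes that were lower. Within 10 Mb the median log2 fold change was -0.43 around MGST1 (chromosome 12, 88 of 105 lower), -0.43 around FECH (chromosome 18, 41 of 45), -0.35 around PRDX3 (chromosome 10, 59 of 68) and -0.29 around GLRX3 (chromosome 10, 35 of 43). The neighbours of ABCC3 on chromosome 17 had a median of -0.34, and those of BACH2 on chromosome 6 one of -0.10. After subtraction of these medians the log2 fold changes were -0.28 for MGST1, -0.23 for FECH, -0.26 for PRDX3, -0.21 for GLRX3, -3.16 for ABCC3 and -1.47 for BACH2. Around NQO1, HMOX1, GCLC, GCLM, TXNRD1, AKR1C1 and AKR1C2 the medians lay between -0.071 and 0.063. Within 2 Mb the median was 0.10 around NQO1 (32 of 51 higher) and -0.088 around TXNRD1. When the median within 10 Mb was subtracted in each library, the NQO1 groups overlapped (exact permutation p = 0.2). Those of HMOX1 and TXNRD1 then no longer overlapped (exact permutation p = 0.1 for each). The part that position played in these differences was not tested.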

How the data were processed

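Total RNA from 3 shControl and 3 shEphexin1 samples of H1299 cells was made into libraries with a stranded total RNA kit and sequenced. Per the study's methods and the submitters' processing notes, the authors aligned reads to GRCh37/hg19 with TopHat2 2.0.13 and deposited FPKM per gene and library from Cufflinks 2.2.1 (Cuffdiff, geometric normalization, pooled dispersion). The gene annotation, any filter and the strand setting are not given in the sources used here. Read counts were not used here, so depth is unknown and no counting error is given.

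Genes at 0.1 FPKM or more in 3 or more libraries were compared as log2(FPKM + 0.1) with limma 3.58.1 (R 4.3.3; linear model with trended empirical Bayes moderation), and p values were adjusted by the Benjamini-Hochberg method over all 16020 genes tested. Fold changes on this scale understate changes of low genes. Called means an adjusted p no higher than 0.025 with a fold of 2 or more. Permutation tests are exact and two-sided. Nothing shows that the libraries came from separate cultures, so p values may measure technical spread. Positions and sequences are from GENCODE release 44 on GRCh37, to which 23754 of 26253 symbols were matched, 1332 through a RefSeq synonym. Neighbours are tested genes with a mean of at least 1 FPKM whose midpoint is within 10 Mb. The limma fit was tested on simulated data with independent noise in each library and changes larger than those of the NRF2 target genes. That simulation held no effect shared by a replicate number or by GC content, so it says nothing on such effects. Python 3.11.15, pandas 2.3.3 and matplotlib 3.10.9 were used. The genes and lists were chosen with earlier results of these data known. Named are the 9 genes, NGEF, the aldo-keto reductases, NFE2L2, KEAP1 and BACH1, in each list the genes at an adjusted p no higher than 0.05 and the 3 largest changes at a mean of at least 1 FPKM, and the 5 nearest profiles. Sums of AKR1C1 and AKR1C2, medians of neighbours per library or within 2 Mb, and neighbours of genes outside the 9 are alternatives added after seeing the data.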

Additional observations from a re-analysis of the deposited data

How the results depend on the processing

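None of the 8 NRF2 target genes tested was called under any alternative tried. The number of genes called among all tested, 303, was 139 with a pseudocount of 1 FPKM, 168 without a filter, 564 with a term for replicate 2, 543 after correction for GC content and transcript length, 464 at an adjusted p no higher than 0.05 with the same fold and 1123 at that p with no fold threshold. Leaving out 1 library gave 61 (without shControl replicate 1) to 316 (without shEphexin1 replicate 2). Replicate numbers were shared by the groups, and the main fit did not take the libraries as paired. The correlation of deviations from the group means was 0.0914, 0.430 and 0.328 for replicates 1, 2 and 3. Each library correlated best with its own number, so these values do not show that the libraries were unpaired. A replicate block gave 556 calls, and brought the adjusted p of NQO1 to 0.00755, of HMOX1 to 0.0205, of SRXN1 to 0.000910, of AKR1C1 to 0.0485 and of NGEF to 0.00284. The GC content and length correction put the same 5 genes under 0.05, and median centring put SRXN1 under it (0.0490). The share of all genes under 0.05 was not counted in these fits. The 556 and 543 calls are at the stricter rule with a fold of 2, so they give no background for these genes. The signs of NQO1, HMOX1, GCLC, TXNRD1, SRXN1 and AKR1C1 held under every alternative run, AKR1C1 having none for the filter of 1 FPKM, which it did not pass. GCLM turned without shEphexin1 replicate 2 (-0.045 to 0.26 over the libraries left out), and AKR1C2 turned without that library (-0.013 to 0.30) and with replicates 1 and 3 alone (-0.082). No scaling moved the median of all genes by more than 0.1, but single genes moved more. Quantile normalization raised the log2 fold changes of NQO1 to 0.42 (limma adjusted p = 0.0856) and TXNRD1 to 0.21 (limma adjusted p = 0.297). It lowered those of AKR1C1 to 0.76 and AKR1C2 to 0.075. Without read counts, values under 1 FPKM such as those of AKR1C1 and AKR1B10 have unknown counting error.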
